A study of Homo sapiens with 6 samples.

Results

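A group of 10 genes that carry or control the cellular response to low oxygen were followed in K562 cells given calactin: the factors HIF1A, EPAS1 and HIF3A, their partners ARNT and ARNT2, the oxygen sensors EGLN1, EGLN2, EGLN3 and HIF1AN, and the recognition protein VHL. Members were all probe sets whose annotation named 1 of these 10 genes and no other. This gave 31 of the 54675 probe sets on the array. K562 is an established human line from chronic myeloid leukaemia with erythroid features, and calactin is a cardenolide, a plant steroid of a class that inhibits the sodium pump. RNA came from 3 samples of cells treated for 12 h with calactin, at a concentration the labels give as 0.15 mM. It also came from 3 samples of untreated cells at the same time. By their labels, the samples within a group are biological replicates, and no oxygen level, hypoxia treatment or vehicle is named. Each sample was read on 1 Affymetrix array in 1 colour, and precision is set by how few arrays there are.

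In cells with enough oxygen, EGLN enzymes hydroxylate prolines of the HIF alpha subunits, VHL then binds the marked protein, and the proteasome destroys it. HIF1AN hydroxylates an asparagine instead, which blocks the binding of coactivators. When oxygen falls, the alpha subunit is spared, pairs with ARNT and turns on genes of glycolysis, iron handling and vessel growth. EGLN3 and EGLN1 are themselves among the genes that HIF factors are known to turn on. Control is thus mainly of the protein, while the arrays measured messenger RNA alone.

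With calactin, EPAS1 rose 3.29-fold by its brightest probe set and HIF1A rose 1.22-fold. EGLN3 fell 2.38-fold and 1.70-fold by its 2 probe sets, and EGLN1 fell 1.34-fold by the brightest of 4. The calls of HIF1A, of EGLN1, of the 1.70-fold fall of EGLN3 and of the 1.89-fold rise of EPAS1 depended on the processing or on single arrays, as given below. The brightest probe sets of ARNT, VHL and HIF1AN were not called, though VHL was called when replicate numbers were used as pairs. Most HIF3A probe sets, and the only ones of ARNT2 and of EGLN2 without a second symbol, were dim, with neither group mean at the median signal of the array. A call is an adjusted p under 0.05 from limma over 54613 probe sets, and folds are on the scale of log2(intensity + 16), which understates the change of dim probe sets.

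Of the 31 member probe sets, 3 were called higher and 3 lower. Over the whole array 3.68% of probe sets were called higher, 10.3% lower and 13.9% in either direction. The 6 calls fell in 4 of the 10 genes. The 3 calactin arrays lay on 1 side of the 3 untreated arrays for 10 member probe sets, 7 of them higher, and for 28.4% of all probe sets. The 3 higher calls came from 2 genes and the 3 lower from 2 others, so these counts describe single genes and not the group. In 13 member probe sets neither group mean reached 32.5 intensity units, the median signal of all probe sets. Of these dim probe sets 0 were called, but a rise past the median takes a probe set out of them. EPAS1 200879_s_at, at a mean of 24.3 without calactin and 61.1 with it, was such a call. Whether a transcript was measured at all in the dim probe sets cannot be read from the values.

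The stretches of DNA just upstream of the 4 genes with a called probe set are given next, because HIF factors bind a short core that reads ACGTG or GCGTG. Sequences are from RefSeq (GRCh38.p14), each the 250 bases before an annotated start, 5′ to 3′ on the strand of the gene. Capitals mark a match to ACGTG or GCGTG on either strand. A promoter entry was found for 8 of the 10 genes. VHL and ARNT2 were not matched.

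EPAS1, chr2:46297157-46297406, plus strand: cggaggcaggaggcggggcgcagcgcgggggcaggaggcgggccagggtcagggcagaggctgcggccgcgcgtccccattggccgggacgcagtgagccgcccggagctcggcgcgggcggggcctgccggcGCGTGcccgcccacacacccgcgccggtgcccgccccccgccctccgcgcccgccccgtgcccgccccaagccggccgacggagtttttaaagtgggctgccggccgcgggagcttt

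HIF1A, chr14:61695263-61695512, plus strand: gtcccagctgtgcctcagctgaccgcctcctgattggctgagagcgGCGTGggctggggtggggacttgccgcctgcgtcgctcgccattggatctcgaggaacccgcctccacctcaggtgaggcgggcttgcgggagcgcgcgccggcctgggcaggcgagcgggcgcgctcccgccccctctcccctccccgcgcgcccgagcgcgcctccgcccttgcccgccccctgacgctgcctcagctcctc

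EGLN1, chr1:231422288-231422537, minus strand: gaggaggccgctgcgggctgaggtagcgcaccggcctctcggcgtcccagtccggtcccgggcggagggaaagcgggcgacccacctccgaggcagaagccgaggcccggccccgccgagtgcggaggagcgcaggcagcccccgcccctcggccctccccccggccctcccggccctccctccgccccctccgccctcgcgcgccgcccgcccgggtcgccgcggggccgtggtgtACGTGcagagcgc

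EGLN3, chr14:33951075-33951324, minus strand: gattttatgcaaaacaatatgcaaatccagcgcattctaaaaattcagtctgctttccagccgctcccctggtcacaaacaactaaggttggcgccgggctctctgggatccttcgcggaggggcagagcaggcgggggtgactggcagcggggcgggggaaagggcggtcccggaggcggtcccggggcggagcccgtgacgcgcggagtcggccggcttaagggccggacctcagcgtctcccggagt

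EPAS1 and HIF1A each held 1 GCGTG, centred 115 and 202 bases before the start. EGLN1 held 1 ACGTG, centred 11 bases before it, and the EGLN3 window held neither core. HIF1A has a second entry, whose window held neither. Among the other members, EGLN2 held a palindromic CACGTG, which counts once on each strand, and HIF3A held 3 GCGTG, all of them in 1 of its entries, while ARNT and HIF1AN held none. At least 1 of the cores occurs on either strand in 43.2% of the 35116 promoter windows of this length, ACGTG in 18.5% and GCGTG in 32.2%. A match is a description of letters and not a site, and a window without one says only that these letters are absent there.

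EPAS1 encodes HIF-2alpha, the alpha subunit known for driving erythropoietin and vascular genes. Its brightest probe set, 200878_at, read 208.4, 520.3 and 267.3 intensity units in untreated replicates 1, 2 and 3, and 891.7, 1294 and 1005 in the calactin replicates. Every calactin array lay above every untreated one, and replicate 2 was the highest of its group on both sides. The mean was 1064 ± 208 with calactin and 332.0 ± 166 without (SD, n = 3 each). The log2 difference was 1.72 ± 0.29 (SE), with a 95% interval of 1.05 to 2.39 and an adjusted p of 0.00509. Taken within replicate numbers 1, 2 and 3, it was 2.02, 1.29 and 1.85. The call held without any single array, with estimates from 1.45 without untreated replicate 1 to 2.08 without untreated replicate 2. It was lost when both arrays of replicate 3 were left out, with an adjusted p of 0.139 at a log2 difference of 1.65.

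The other probe sets of EPAS1 gave smaller values. Probe set 200879_s_at read 28.8, 18.9 and 25.3 in untreated cells and 60.3, 79.4 and 43.6 with calactin. The groups did not overlap, but the untreated signals lay below the median of the array. The log2 difference was 0.92 ± 0.22 (adjusted p = 0.0261). It was no longer called after removing calactin replicate 1 or 2, or any of the untreated replicates, with adjusted p-values from 0.0549 to 0.096. Its value was 1.27 with a pseudocount of 1 and 0.49 with 64. Probe set 241055_at stayed dim in both groups and was not called, at -0.16 ± 0.27.

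A direct test asked whether probe sets of a gene change unequally. It set the within-array difference between each further probe set and the brightest one of its gene against the treatment, over 21316 such pairs, of which 6.34% were called. For EPAS1, 200879_s_at differed from 200878_at by -0.80 ± 0.40 (adjusted p = 0.319) and 241055_at by -1.87 ± 0.47 (adjusted p = 0.0663). None of the 21 member pairs was called by limma. The difference of 241055_at was called with the replicate number as a block (adjusted p = 0.0351), and that of 200879_s_at without untreated replicate 2, at -1.26 (adjusted p = 0.0481). Of all pairs, 673 rather than 1351 were called with the block.

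HIF1A encodes HIF-1alpha, the widely expressed alpha subunit, and is covered by 1 probe set with its symbol alone. Untreated replicates 1, 2 and 3 read 1395, 1483 and 1498, and calactin replicates 1801, 1825 and 1725. The groups did not overlap, and the SD was 52.1 with calactin and 55.7 without. The means of 1783 and 1459 gave a log2 difference of 0.29 ± 0.07, with a 95% interval of 0.13 to 0.45 and an adjusted p of 0.0277. The differences within replicate numbers were 0.36, 0.30 and 0.20. The size held while the call did not: without 1 array the estimate ran from 0.26 to 0.31, and the adjusted p rose to between 0.0606 and 0.0989 without any calactin replicate or without untreated replicate 1 or 3. The call was also lost with eBayes without a trend (adjusted p = 0.139) and under scaling to the hybridisation spikes (adjusted p = 0.475), and was kept in 9 of 17 alternatives.

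The change of EPAS1 was set against that of HIF1A within each array. Their log2 difference, in arbitrary units since probe sets differ in brightness, was -2.65, -1.48 and -2.42 in untreated replicates and -1.001, -0.49 and -0.77 with calactin. The groups did not overlap, and EPAS1 gained 2.70-fold on HIF1A. An exact two-sided permutation test gave p = 0.1, the smallest that 3 against 3 arrays allow. It ignored the replicate numbers, and p was 0.15 after adjustment over the 3 such pairs tested. With the mean of all EPAS1 probe sets, the gain was 0.54 rather than 1.43 on the log2 scale.

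HIF3A, the third alpha gene, several of whose splice forms restrain the others, has 7 probe sets, of which 6 were dim. The remaining one, 222123_s_at, read 28.1, 16.2 and 24.9 in untreated cells and 38.8, 34.8 and 30.4 with calactin. The groups were apart by a narrow margin at a level near the array median, and the difference of 0.38 ± 0.19 was not called (adjusted p = 0.28). The 6 dim ones had differences from -0.25 to 0.16, and their arrays overlapped.

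**Figure D1:**
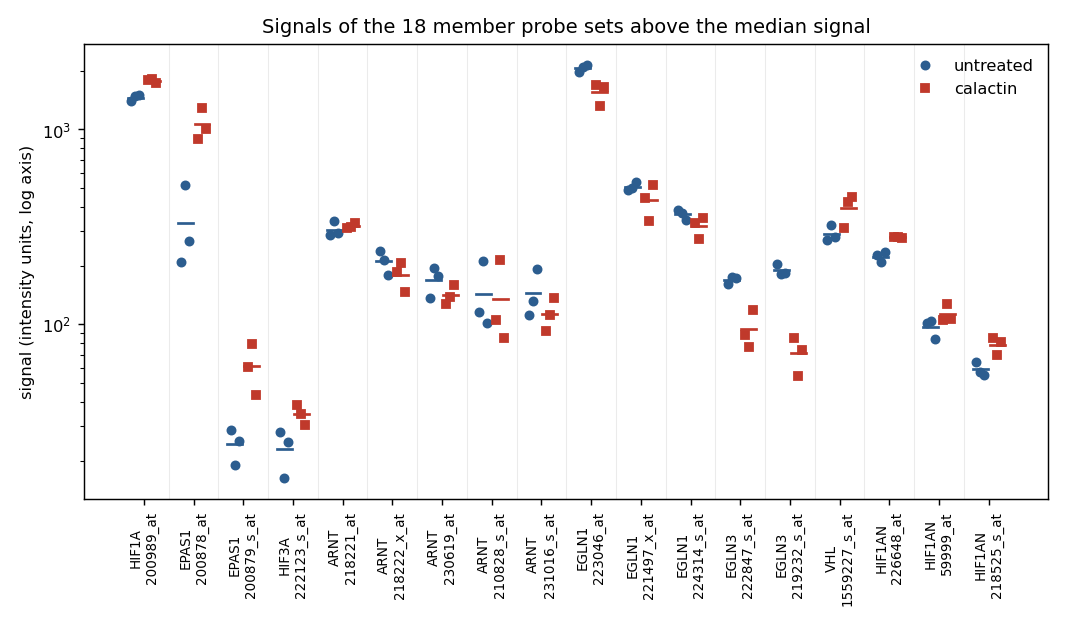
Signal of each of the 18 member probe sets in which at least 1 group mean reached the median signal of the array, in intensity units on a log axis. Circles are the 3 untreated arrays, squares the 3 calactin arrays and bars the group means, and heights of different probe sets are not comparable. EPAS1 200878_at rises from 208.4 to 520.3 up to 891.7 to 1294, and both EGLN3 probe sets lie lower in every calactin array.

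ARNT is the constant partner of the alpha subunits and of the dioxin receptor. Its brightest probe set, 218221_at, read 286.2, 339.2 and 293.2 in untreated cells and 311.0, 317.1 and 331.7 with calactin. The groups overlapped, and the log2 difference of 0.06 ± 0.11 had a 95% interval of -0.18 to 0.30. The other 4 that were not dim lay between -0.30 and -0.11, and 0 of the 7 ARNT probe sets were called. Probe set 210828_s_at showed a pattern of replicates rather than of treatment. It read 212.1 and 214.9 in replicate 2 of the untreated and calactin groups, and 84.7 to 115.3 in the other 4 arrays. ARNT2, a relative found mainly in brain and kidney, is covered by 1 dim probe set, at 1.0 to 5.3 in untreated cells and 2.7 to 18.04 with calactin. It was not called at 0.54 ± 0.23 (adjusted p = 0.186), and was called without calactin replicate 1 (0.80, adjusted p = 0.0296).

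EGLN3 encodes PHD3, a prolyl hydroxylase whose transcript is known to follow HIF activity closely. Probe set 219232_s_at read 203.4, 181.5 and 182.6 in untreated replicates and 84.9, 54.6 and 73.6 with calactin. The lowest untreated array thus stood well above the highest calactin array. The means of 189.2 ± 12.3 and 71.0 ± 15.3 (SD, n = 3 each) gave a log2 difference of -1.25 ± 0.16, with a 95% interval of -1.62 to -0.88 and an adjusted p of 0.00148. Differences within replicate numbers were -1.12, -1.49 and -1.15. The call held without any single array, from -1.37 to -1.11, and was lost in replicates 1 and 2 alone (-1.30, adjusted p = 0.0621).

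The second EGLN3 probe set, 222847_s_at, read 160.3, 174.3 and 172.5 in untreated replicates and 88.0, 76.2 and 118.7 with calactin. All calactin arrays were again lower, with replicate 3 closest to the untreated level. The difference was -0.76 ± 0.16 (adjusted p = 0.0151). Removing calactin replicate 1 or 2, or untreated replicate 3, ended this call (adjusted p from 0.0558 to 0.0705) and under quantile normalization (-0.59, adjusted p = 0.0547). It was lost as well under scaling to the hybridisation spikes (-0.66, adjusted p = 0.14), to the poly-A spikes with the block (-0.19, adjusted p = 0.297), and in replicates 1 and 2 alone (-0.90, adjusted p = 0.0703). The 2 probe sets differed by -0.49 ± 0.17 in their change, which was not called (adjusted p = 0.164).

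EGLN1 encodes PHD2, the main sensor in most cells. Its brightest probe set, 223046_at, read 1962, 2084 and 2150 in untreated replicates and 1683, 1319 and 1646 with calactin. The groups did not overlap, and calactin replicate 2 was the lowest. The log2 difference was -0.42 ± 0.10, with a 95% interval of -0.65 to -0.18 and an adjusted p of 0.0286. Leaving out calactin replicate 2 or 3 or any one of the untreated replicates ended the call, with adjusted p-values from 0.0597 to 0.115 and estimates from -0.47 to -0.31. It was lost too with eBayes without a trend (adjusted p = 0.0979) and under quantile normalization (-0.31, adjusted p = 0.103), and was kept in 7 of 17 alternatives.

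The other EGLN1 probe sets had the same sign but were not called. Probe set 221497_x_at was at -0.25 ± 0.15 and 224314_s_at at -0.20 ± 0.12, with overlapping groups, and 223045_at was dim. The direct test called none of the 3 different from 223046_at (adjusted p from 0.47 to 0.583). Within arrays, EGLN3 by its brightest probe set fell against EGLN1 by 0.35 on the log2 scale (exact permutation p = 0.1, the smallest possible, adjusted p = 0.15). The mean of each gene's probe sets made this -0.75.

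EGLN2, the sensor PHD1, is known as a gene responsive to oestrogen. Its only probe set without a second symbol, 227147_s_at, was dim, at 1.0 to 14.6 over the 6 arrays. Whether it measured the gene at all cannot be read from these values, and its change against EGLN1 changed sign with a pseudocount of 1. Probe set 220956_s_at carries the symbols of EGLN2 and of RAB4B-EGLN2, a transcript that runs through from the neighbouring RAB4B, and is not counted among the members. It read 820.7, 955.4 and 798.2 in untreated cells and 978.8, 1118 and 1140 with calactin. The groups stood just apart, and its difference of 0.33 ± 0.10 was not called (adjusted p = 0.072). A second shared probe set, 223083_s_at, which also carries the symbol RAB4B, was at -0.06 ± 0.17 with overlapping groups (adjusted p = 0.886).

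HIF1AN, the asparaginyl hydroxylase FIH, has 3 probe sets, and in each every calactin array read above every untreated one. Probe set 226648_at read 225.8, 208.4 and 233.9 in untreated cells and 282.3, 282.1 and 277.9 with calactin. Its difference of 0.32 ± 0.10 did not pass (adjusted p = 0.0823), but did under quantile normalization (0.51, adjusted p = 0.0138). Probe set 218525_s_at was at 0.34 ± 0.15 and 59999_at at 0.20 ± 0.15, and the direct test called neither different from 226648_at. The 3 probe sets are measures of 1 gene in the same RNA and not separate evidence.

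VHL encodes the part of a ubiquitin ligase that recognises hydroxylated HIF. Probe set 1559227_s_at read 271.7, 325.2 and 280.3 in untreated replicates and 312.7, 423.8 and 452.6 with calactin. The groups overlapped, through calactin replicate 1 and untreated replicate 2. The difference of 0.41 ± 0.15 was not called (adjusted p = 0.129). Within replicate numbers it was 0.19, 0.37 and 0.66, all of them positive. The call was made with the replicate number as a block (adjusted p = 0.0385), without calactin replicate 1 (0.56, adjusted p = 0.0345) and under quantile normalization (0.60, adjusted p = 0.0181). Probe set 203844_at was dim.

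**Figure D2:**
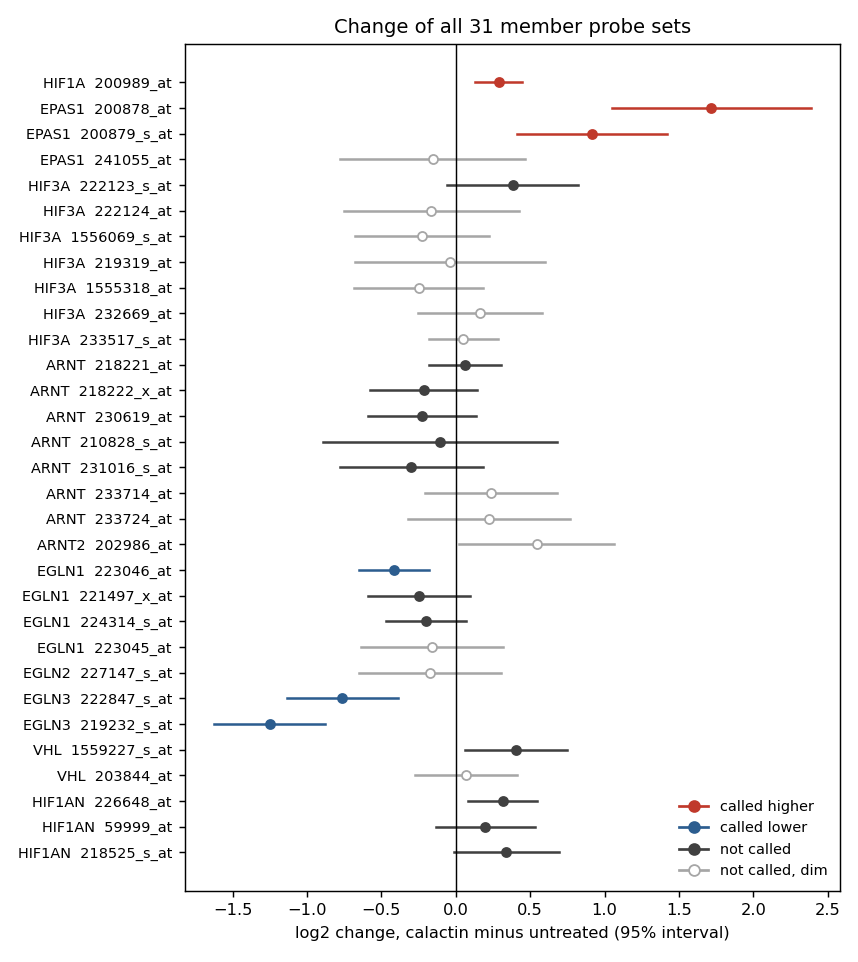
Log2 difference between calactin and untreated arrays for all 31 member probe sets, with 95% intervals from limma. Red marks the 3 called higher, blue the 3 called lower, dark grey those not called and open light grey those that were dim. EPAS1 200878_at lies farthest to the right at 1.72 and EGLN3 219232_s_at farthest to the left at -1.25, and the intervals of all ARNT probe sets include 0.

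The scale of the arrays bears on small changes. Median signals were 31.12 to 31.97 with calactin and 33.0 to 34.3 without, so each calactin array was dimmer, and the median log2 difference of all probe sets was -0.05. Under quantile normalization 3382 probe sets were called higher and 4081 lower, against 2011 and 5600 on the deposited scale. The split was 1220 higher and 2265 lower under scaling to the hybridisation spikes, and 31723 higher and 1858 lower under the poly-A scaling described next. The poly-A spikes, bacterial transcripts added to the RNA, averaged 887, 1135 and 83.4 intensity units in calactin replicates 1, 2 and 3. In untreated replicates 1, 2 and 3 they averaged 1297, 1896 and 112. They were thus lower with calactin in each replicate number, and lowest in replicate 3 of both groups. Scaling to them, with the replicate block, moved the median of all probe sets to 0.53, and EGLN1 223046_at then had the other sign, at 0.15. A scaling that shifts every probe set of an array by the same amount cannot alter the distance from that median, so such settings say nothing about it. On the deposited scale HIF1A lay 0.33 above the median, EPAS1 200878_at 1.77 above it, and EGLN1 223046_at and EGLN3 219232_s_at were at -0.37 and -1.20 from it.

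**Figure D3:**
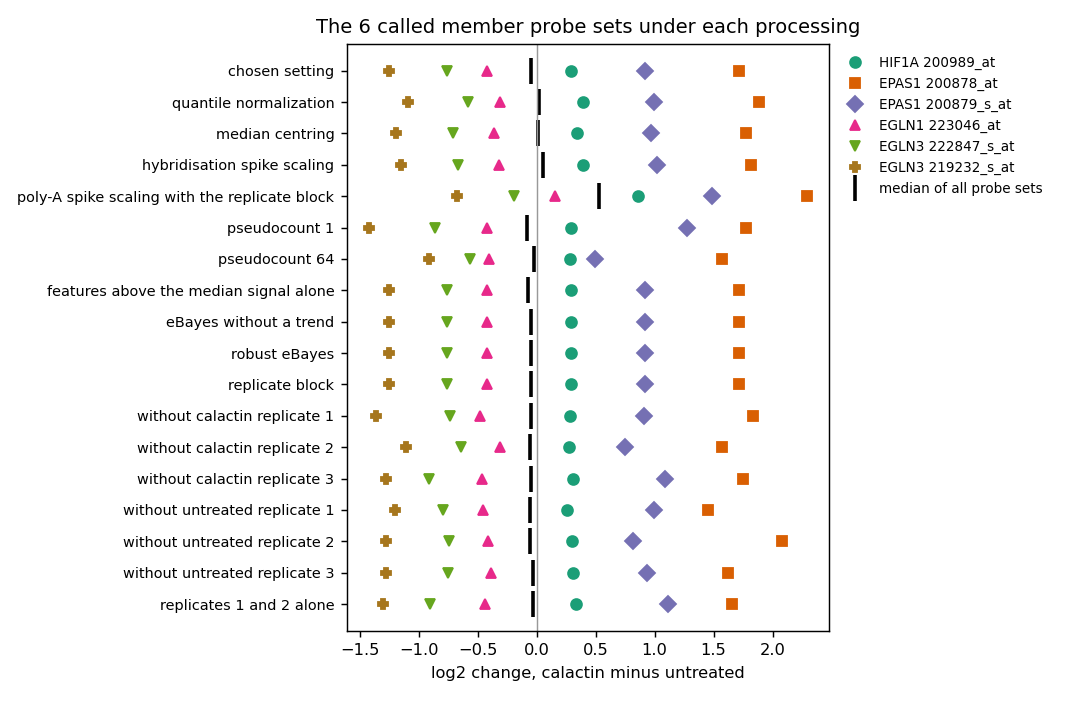
Log2 difference between calactin and untreated arrays of the 6 called member probe sets (coloured symbols) in the chosen setting and under 17 other ways of processing, with the median of all probe sets as a black bar. Under poly-A spike scaling the bar lies at 0.53 and EGLN1 223046_at at 0.15. Spike scaling, median centring, the eBayes settings and the block leave the distance to the bar as it was by construction, and the 6 probe sets were picked for being called.

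Genes that HIF factors are known to turn on are described next, from lists counted whole but made with earlier results of these data known. Their shares describe these genes and are no independent check on HIF output. The counts used 1 probe set per gene, the brightest, over 19775 genes, of which 4.98% were called higher and 16.6% lower. Among the 12994 genes that were not dim, the shares were 7.3% and 24.7%. This is the closer background for the lists of targets and of regulators, in which few genes were dim. With the replicate numbers as a block, the shares called higher and lower were 7.1% and 20.2% of all genes (1405 and 4003). Of 22 measured target genes of glycolysis, none of them dim, 8 fell (36.4%), 0 rose and 14 were not called. HK2, the hexokinase, read 1785, 1612 and 1821 in untreated replicates and 292.7, 162.0 and 323.5 with calactin, and fell by 2.72 ± 0.22 on the log2 scale (adjusted p = 1.13e-04). The gap between the groups was several times the spread within either. PFKP, a phosphofructokinase, fell by 1.94 ± 0.10, PFKFB4, which makes its activator, fell by 1.70 ± 0.11, and PDK1, which closes the entry to the citric acid cycle, fell by 1.52 ± 0.12. LDHA, the lactate dehydrogenase, was not called, at -0.09 ± 0.05. The median of the list was -0.11, against -0.06 for all genes.

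Of 46 measured HIF targets outside glycolysis, 15 fell, 1 rose and 30 were not called, with a median of -0.15. Of the 44 that were not dim, 34.1% fell. EFNA3, an ephrin, read 211.4, 184.8 and 243.2 in untreated cells and 43.5, 35.8 and 26.6 with calactin, and fell by 2.16 ± 0.18 (adjusted p = 1.25e-04). BNIP3, which brings mitochondria to autophagy, read 3527, 4253 and 3449 without calactin and 1987, 1872 and 1785 with it, and fell by 0.98 ± 0.09. ZNF395 fell by 1.14 ± 0.12, and P4HA2, a collagen prolyl hydroxylase of the same enzyme class as the EGLN sensors, by 1.11 ± 0.12. VEGFA, the vessel growth factor, was not called, at -0.06 ± 0.12, with overlapping groups. CA9 was not measured by a probe set of its own. The gene that rose, ADM, chosen for mention after its value was seen, encodes a vasodilator peptide. It read 13.8, 20.8 and 20.5 without calactin and 40.9, 58.4 and 35.5 with it, near the array median, and its call was lost without calactin replicate 2. With the replicate block the counts were 2 higher and 16 lower here, and 1 and 9 among the glycolysis targets.

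Of 37 measured regulators and cofactors of HIF, 5 rose and 8 fell, with a median of -0.03. Among the 35 that were not dim, 14.3% rose and 22.9% fell, the latter close to the share of all genes that were not dim. SIAH2, a ligase that marks EGLN3 protein for destruction, read 614.6, 645.8 and 605.0 without calactin and 1292, 1465 and 1257 with it, a rise of 1.08 ± 0.09 (adjusted p = 1.25e-04). CREBBP, a coactivator that HIF1AN keeps from binding, rose by 0.88 ± 0.12, and GSK3B, a kinase that can mark HIF-1alpha independently of oxygen, by 0.84 ± 0.09. USP28, a deubiquitinase, fell by 1.26 ± 0.16. With the replicate block 8 rose and 11 fell, and the count of rises was 3 without calactin replicate 2 or without calactin replicate 3.

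Of 15 measured other genes of the bHLH-PAS family and their PAS relatives, 2 rose and 2 fell, with a median of 0.008. In this list 7 genes were dim. Among the 8 that were not, 25% rose and 25% fell, against 7.3% and 24.7% of all genes that were not dim. Each of these 25% shares stands for 2 genes. NCOA1 and CLOCK rose by 0.85 ± 0.14 and 0.73 ± 0.13, while NCOA2 and PER2 fell by 1.31 ± 0.19 and 0.76 ± 0.16. NCOA1 and NCOA2 are steroid receptor coactivators, and CLOCK and PER2 belong to the circadian clock. With the mean of each gene's probe sets, the calls of NCOA2 and PER2 were lost (adjusted p = 0.0641 and 0.187).

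**Figure D4:**
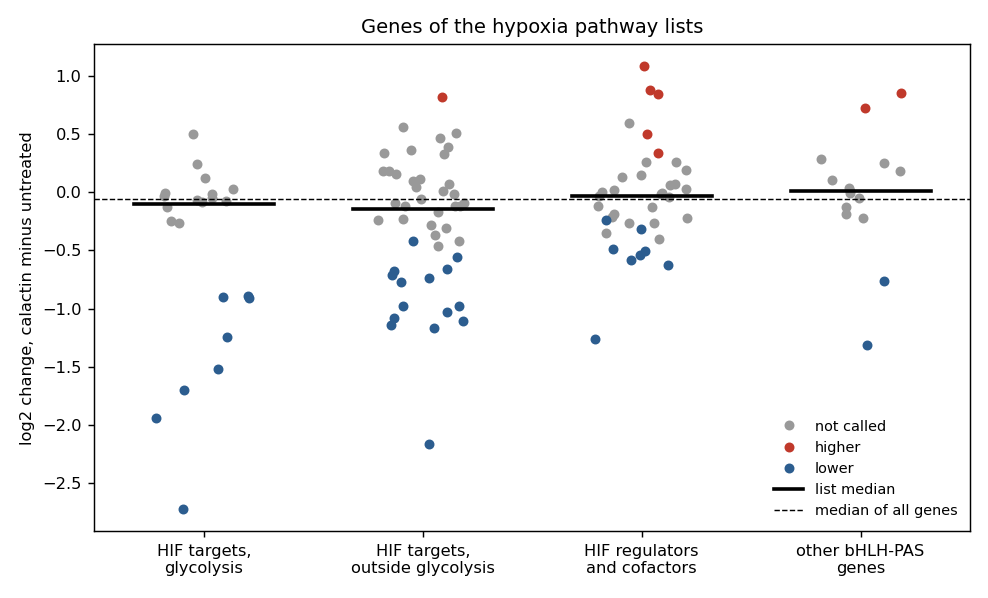
Log2 difference between calactin and untreated arrays for each measured gene of 4 lists, by the brightest probe set of the gene. Red and blue mark genes called higher and lower, grey those not called, black bars the list medians and the dashed line the median of all genes at -0.06. Most called HIF targets lie below the line (8 of 8 in glycolysis, 15 of 16 outside it), while the regulators hold 5 called higher and 8 called lower. Of all 12994 genes that were not dim, 949 were called higher and 3214 lower, so calls were mostly lower over the whole array too.

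The pattern of EPAS1 200878_at over the 6 arrays, which includes the high signal of replicate 2 in both groups, was compared with 12993 other genes above the median signal. The 5 with the highest Pearson correlation of log2 signal were ATG12, DYRK1A, MBLAC1, TOPORS and HUS1, at 0.998, 0.998, 0.997, 0.996 and 0.996. These are descriptions over arrays that share the difference between the groups, and 747 genes had a correlation over 0.9. Of the 5, HUS1, part of a clamp at damaged DNA, rose most, by 0.93 ± 0.17, less than EPAS1 itself.

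Cell identity was checked by marker genes. All 11 measured K562 and erythroid markers, among them HBE1, GATA1, TAL1, KLF1 and EPOR, were above the median signal, and of these 5 were called lower and 1 higher with calactin. Above the median were also 3 of 6 T cell, 2 of 4 B cell, 3 of 6 monocyte, 4 of 6 fibroblast and 4 of 6 epithelial markers. Of these lists, 1 T cell, 1 fibroblast and 1 epithelial marker were called lower. For comparison, 16.6% of all genes were called lower and 4.98% higher. Among genes that were not dim, the shares were 24.7% and 7.3%. The epithelial list summed to 14343 to 17656 in untreated arrays and 10429 to 12234 with calactin, and the T cell list to 2252 to 2667 and 1761 to 1944. The monocyte list, with 0 genes called, summed to 924 to 982 in untreated arrays and 736 to 896 with calactin. Sums of the B cell, fibroblast and K562 lists overlapped between the groups. Of the endothelial markers, a cell type known for EPAS1, CDH5, VWF, KDR, TEK and EMCN were dim, while PECAM1 and CLDN5 were not. The endothelial list summed to 362.4 to 447.9 in untreated arrays and 423.2 to 518.6 with calactin, and 0 of its 7 genes were called. The part of any of these lists in the changes of the members was not tested. In bulk RNA, fewer cells with a transcript and less of it per cell cannot be told apart.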

How the data were processed

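Linear intensities were used as the authors deposited them, with a value for each probe set on each array. How they were summarised, corrected for background and scaled is not given in the sources used here. Of 54675 probe sets, 62 array controls were left out, 41091 carried 1 gene symbol, 1801 several and 11721 none in the platform annotation. Intensities were turned into log2(intensity + 16) with no further normalization. limma 3.58.1 in R 4.3.3 (lmFit, eBayes with a variance trend) compared calactin with untreated arrays, two-sided, with Benjamini-Hochberg adjustment over all 54613 probe sets, or over 19775 genes represented by their brightest probe set. The fit was checked on simulated arrays with independent noise and no replicate effect. The changes put in were larger than those of HIF1A, EGLN1, EGLN3 222847_s_at and EPAS1 200879_s_at, so the check does not bear on those calls. Figures were drawn with matplotlib 3.10.9. The labels call the replicates biological and do not say how the cultures were kept apart, so p-values measure the spread between these samples.

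Named were all member probe sets, up to 4 genes of smallest p from each list, VEGFA, LDHA, BNIP3 and CA9, and the 5 genes most like the member probe set of largest change. The members and lists were chosen with earlier results of these data known. Over 9887 genes, deviations from group means correlated at 0.542, 0.408 and 0.346 between arrays sharing numbers 1, 2 and 3 in the titles. The highest correlation with another number was -0.010. Deviations within a group cancel out, so positive values for shared numbers make the others negative on average. The contrast with other numbers is therefore no separate evidence. By the positive values themselves, arrays of the same number shared variation, as pairs would. The calls printed are nevertheless from the fit without a pair term, so their errors and p-values include that shared variation. Values with the replicate number as a block are given beside those it changes. With the block in limma the member calls all stayed, and EPAS1 200878_at had an adjusted p of 2.82e-04. Arrays correlated at 0.985 to 0.988 within groups and 0.971 to 0.978 between them.

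Alternatives were quantile normalization, median centring, scaling to hybridisation or poly-A spikes, pseudocounts of 1 and 64, a signal filter, other eBayes settings, the replicate block, each array left out and other uses of a gene's probe sets. A fit of replicates 1 and 2 alone was added once the data had been seen. The trp spike sat at background and was left out of the scaling.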

Additional observations from a re-analysis of the deposited data

How the results depend on the processing

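Counts are given as higher then lower. Quantile normalization gave 5 and 1 member probe sets, 3382 higher of all probe sets, 1666 higher of all genes, and 1, 2 and 9 higher among glycolysis targets, other targets and regulators. Hybridisation spike scaling gave 1 lower member probe set, 1220 and 2265 of all probe sets, 569 and 1414 of all genes, and 9, 1 and 1 lower among other targets, regulators and bHLH-PAS genes. Poly-A spike scaling with the replicate block gave 20 and 1 member probe sets, 31723 and 1858 of all probe sets, 11870 and 1091 of all genes, 14 higher glycolysis targets, 25 and 8 other targets, 26 and 1 regulators and 10 and 1 bHLH-PAS genes. It reversed ARNT 218222_x_at (0.36), 230619_at (0.34) and 210828_s_at (0.47), EGLN1 223046_at (0.15), 221497_x_at (0.33) and 224314_s_at (0.37), LDHA (0.49) and VEGFA (0.52), where the median of all probe sets was 0.53. The replicate block alone gave 1, 2 and 8 higher among glycolysis targets, other targets and regulators. Beyond that and the VHL and EPAS1 241055_at values in the text, it changed no call of a member probe set.

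Replicates 1 and 2 alone gave 0 and 0 member probe sets, 340 and 1279 of all probe sets, 335 and 1422 of all genes, 5 lower glycolysis targets, 0 higher other targets, 3 and 2 regulators and 0 and 1 bHLH-PAS genes. Features above the median signal alone left 0 higher other targets, eBayes without a trend 3 higher regulators, and averaging a gene's probe sets 0 lower bHLH-PAS genes. Pairs of probe sets with unequal change numbered 673 under the block, with or without poly-A scaling, 102 and 3047 with pseudocounts of 1 and 64, and 0 in replicates 1 and 2 alone. Among member pairs there were 1 under the block with or without poly-A scaling, and 2 with a pseudocount of 64. Leaving out 1 array gave 1 to 3 higher and 1 to 2 lower member probe sets, 1222 to 1949 and 3640 to 4832 of all probe sets, 652 to 1025 higher genes, 304 to 758 pairs, 0 to 1 member pairs, 0 to 1 higher other targets and 3 to 6 higher regulators. EGLN2 against EGLN1 was -0.19 with a pseudocount of 1, EGLN3 against EGLN1 was -0.16 with 64 and -0.75 with the mean of probe sets, which put EPAS1 against HIF1A at 0.54. The causes were not tested. With 3 arrays a group, single-array losses of HIF1A and EGLN1 calls came with estimates that stayed on the same side of 0.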
